A study of Condylura cristata and Mus musculus with 12 samples.

Results

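The genes described here are the numbered keratins, the late cornified envelope genes (Lce), the small proline-rich genes (Sprr), Sbsn and Ly6d, measured in trigeminal (TG) and dorsal root ganglia (DRG) of the star-nosed mole and the mouse. Members were taken by symbol, which gave 92 of the 33773 genes in the mole table (50 keratins, 25 Lce, 15 Sprr, Sbsn and Ly6d) and 78 of the 26125 genes in the mouse table (47 keratins, 16 Lce, 13 Sprr, Sbsn and Ly6d). The set was proposed because of its levels in the mole TG against the DRG, so that contrast is given below as a description. Fitted log2 fold changes with their SE, and counts of members called in the mole, describe that contrast and are no test of the members. The rule takes only keratins named with a bare number, so Krt6a and Krt6b are not members and appear among the other epithelial genes.

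TG hold the sensory neurons of the face and DRG those of the trunk and limbs, and the study asked which transcripts set apart the TG that serve the touch-sensitive star of the mole. RNA was sequenced from 3 TG and 3 DRG samples of wild adult male star-nosed moles and from 2 TG and 2 DRG samples of adult female C57BL/6 mice that have counts, all untreated and with no engineered allele. By the study's methods each sample came from a single individual, except 1 mole DRG combined from 2 individuals, and which sample that was is not stated. Mole replicate 1 of each ganglion (TG 1 and DRG 1) was prepared with Illumina's Genomic kit and sequenced to 76 bases, while all others were TruSeq libraries.

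Keratins are the intermediate filament proteins of epithelial cells. They form obligate pairs of an acidic type I and a basic type II chain, and the pair changes with the epithelium and its layer: Krt8 with Krt18 in simple epithelia, Krt5 with Krt14 in the basal layer of stratified epithelia, Krt1 with Krt10 above it, and Krt4 with Krt13 in mucosa. Lce and Sprr proteins are crosslinked into the cornified envelope, the protein shell of the outermost keratinocytes, and most members are known from skin, mucosa and hair rather than from neurons or glia.

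Library totals were 8409670 to 11140894 counts in the mole TG, 9706906 to 92323879 in the mole DRG and 90548941 to 147076817 in the mouse. Neuronal marker genes summed to between 19983 and 45558 CPM (counts per 1000000 of the normalised library size) in each mole library, so every sample held ganglion RNA. The sum was highest in TG 1, where Nefm alone made up 57.6% of it. TG 1 was the highest library for 3 of the 8 neuronal genes, and the lowest for Prph and Snap25. Hox genes, which mark the trunk, summed to 5.29 to 6.95 CPM in the mole TG and 96.2 to 116.9 CPM in the mole DRG. The mouse libraries went the other way, with 45.4 and 45.4 CPM in those labelled TG against 2.34 and 1.80 CPM in those labelled DRG. The myelin gene Mbp was higher in the mouse libraries labelled DRG (log2 fold change of labelled TG over labelled DRG -1.78 ± 0.21 SE, edgeR adjusted p = 0.0197, 2 libraries per ganglion). Of 6 Schwann and satellite glia genes, 3 were called higher in the mouse libraries labelled DRG, and 3 higher in the mole TG. Skeletal muscle genes were higher in the mole TG. In the mouse they summed to 37.3 and 29.0 CPM with the TG label against 2.39 and 2.69 CPM with the DRG label, so they kept the mole order. Any direction in the mouse therefore rests on labels that the Hox genes go against, and the libraries are called labelled TG and labelled DRG throughout. In bulk ganglia, fewer cells of a type and less RNA per cell cannot be told apart.

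Sequences of 4 Lce1 genes are shown because their values differed between TG libraries and short reads can pass between such copies. The lines below are bases 1 to 150 of the mouse coding sequences (GENCODE M21, build GRCm38, 5′ to 3′), and capitals mark bases that lie in a 36-base stretch also present in a transcript of another mouse gene. Lce1c lies at chr3:92679247-92680918 on the plus strand, and Lce1l at chr3:92849949-92851286, Lce1h at chr3:92763215-92765065 and Lce1m at chr3:93017810-93019060 all on the minus strand.
Lce1c: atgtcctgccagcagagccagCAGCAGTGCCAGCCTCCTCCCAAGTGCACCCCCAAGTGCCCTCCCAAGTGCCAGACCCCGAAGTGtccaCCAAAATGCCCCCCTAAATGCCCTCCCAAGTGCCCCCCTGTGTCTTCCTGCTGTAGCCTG
Lce1l: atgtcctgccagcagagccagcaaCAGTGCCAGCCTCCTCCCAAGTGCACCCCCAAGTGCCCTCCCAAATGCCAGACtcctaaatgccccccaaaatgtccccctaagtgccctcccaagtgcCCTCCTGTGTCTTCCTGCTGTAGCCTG
Lce1h: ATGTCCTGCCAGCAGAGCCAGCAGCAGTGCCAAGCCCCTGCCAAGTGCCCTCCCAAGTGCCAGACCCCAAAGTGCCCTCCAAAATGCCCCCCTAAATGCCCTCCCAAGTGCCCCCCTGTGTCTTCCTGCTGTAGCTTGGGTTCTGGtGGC
Lce1m: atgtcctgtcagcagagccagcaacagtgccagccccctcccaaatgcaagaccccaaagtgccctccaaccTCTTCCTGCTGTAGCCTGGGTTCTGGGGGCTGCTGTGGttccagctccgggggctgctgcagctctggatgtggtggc
Of these 150 bases, 125 were shared in Lce1c, 149 in Lce1h and 80 in Lce1l, against 38 in Lce1m. Lce1c was 93.0% identical to Lce1l over 387 aligned coding bases and 94.7% identical to Lce1h over 396. Over the whole coding sequence, 61.8% of the 36-base windows of Lce1c, 46.2% of Lce1h and 31.6% of Lce1l occurred in another gene, but only 0.587% of those of Lce1m. For 76-base windows, the read length of TG 1 and DRG 1, the shares were 12.6%, 9.28% and 3.33%, with none in Lce1m. For 36-base windows the median over the 18 Lce genes with a coding sequence was 57.7%, against 5.12% over the 79 members with one. Mole reads were aligned to human, dog and mouse transcripts, and a mole count sums over the homologs, so the split of Lce1 reads between copies is uncertain, and the sum over the Lce genes is given beside them. The same holds for Krt16 (52.9% of 36-base windows shared), Krt8 (40.8%, most of all with a pseudogene), Krt14 (28.9%) and the hair keratins Krt81 (63.4%), Krt83 (42.4%) and Krt86 (65.1%).

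Krt24 is shown for the same reason from the other end of the scale. It lies at chr11:99279959-99285262 on the minus strand of GRCm38, and the line gives bases 1 to 150 of its coding sequence, with capitals as above.
Krt24: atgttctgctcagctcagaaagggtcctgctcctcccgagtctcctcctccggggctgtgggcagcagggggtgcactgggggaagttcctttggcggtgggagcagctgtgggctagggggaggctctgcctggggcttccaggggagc
Krt24 had no 36-base window in common with any other gene, as was the case for 18 of the 79 members. In the mouse annotation the 80 members that have an entry lie on 4 chromosomes: 32 (Lce and Sprr) on chromosome 3, 25 on chromosome 11, 22 on chromosome 15 and Sbsn on chromosome 7.

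All members together made up 0.344% of the counts of mole TG 1 (95% Wilson interval 0.340 to 0.348%, counting error only), 0.0410% of TG 2 and 0.0251% of TG 3, against 0.00574% of DRG 1, 0.0146% of DRG 2 and 0.00633% of DRG 3. In CPM the sums were 3871, 395 and 243 in TG 1, TG 2 and TG 3, and 59.5, 138 and 61.7 in DRG 1, DRG 2 and DRG 3. Every TG library was above every DRG library, but TG 1 alone was 12.1 times the mean of the other TG libraries, and the TG mean of 1503 ± 2052 CPM (SD, n = 3) has an SD larger than itself. The DRG mean was 86.3 ± 44.5 CPM (SD, n = 3), and DRG 2 was the highest of the 3. Within the Genomic kit TG 1 was 65.1 times DRG 1, and within the TruSeq kit the TG mean of 319 CPM was 3.20 times the DRG mean of 99.7 CPM. The within-kit ratios differ in size, and their shared direction follows from the lack of overlap and adds nothing to it. With 1 library of each ganglion in the Genomic kit the kit and the individual cannot be told apart.

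**Figure D1:**
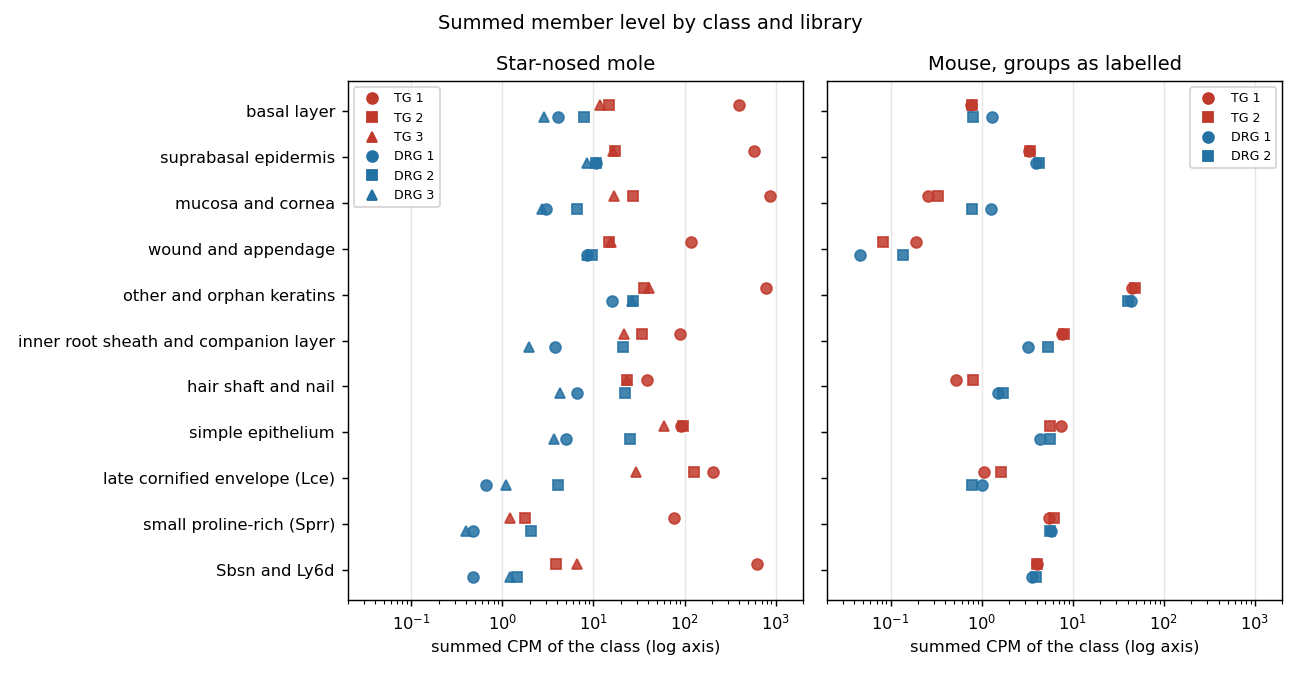
Summed CPM of the members of each class (log axis) in every mole library (left) and every mouse library as labelled (right), red for TG and blue for DRG, with the symbol giving the replicate. Mole TG 1 stands far to the right of TG 2 and TG 3 for mucosa and cornea, at 872 against 27.3 and 16.9 CPM, less so for the late cornified envelope class, at 203 against 126 and 29.2 CPM, and not for simple epithelium, at 90.8 against 96.3 and 59.1 CPM.

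Of the 92 members, 42 had every mole TG library above every DRG library, 1 had every DRG library above every TG library and 49 overlapped. Separation without overlap was found in 21.7% of the 18078 genes that passed the filter on low counts with TG above and in 22.4% with DRG above. The filter passed 45 members, of which 31 had every TG library above every DRG library and 1 the reverse. The members were chosen on this contrast, so these shares are given for scale only. The highest of the 6 libraries was TG 1 for 64 members, TG 2 for 14 and TG 3 for 10, leaving 1 for DRG 1, 1 for DRG 2 and 2 for DRG 3. Among the 45 members that passed the filter it was TG 1 for 34, TG 2 for 8, TG 3 for 2 and DRG 3 for 1. Over all tested genes the highest library was TG 1 for 19.3%, TG 2 or TG 3 for 33.6% and a DRG library for 47.1%. TG 1 was over 10 times the highest of the other 5 libraries for 25 members, 13 of them among the 45 that passed the filter, against 0.160% of all genes tested (29 of 18078).

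**Figure D2:**
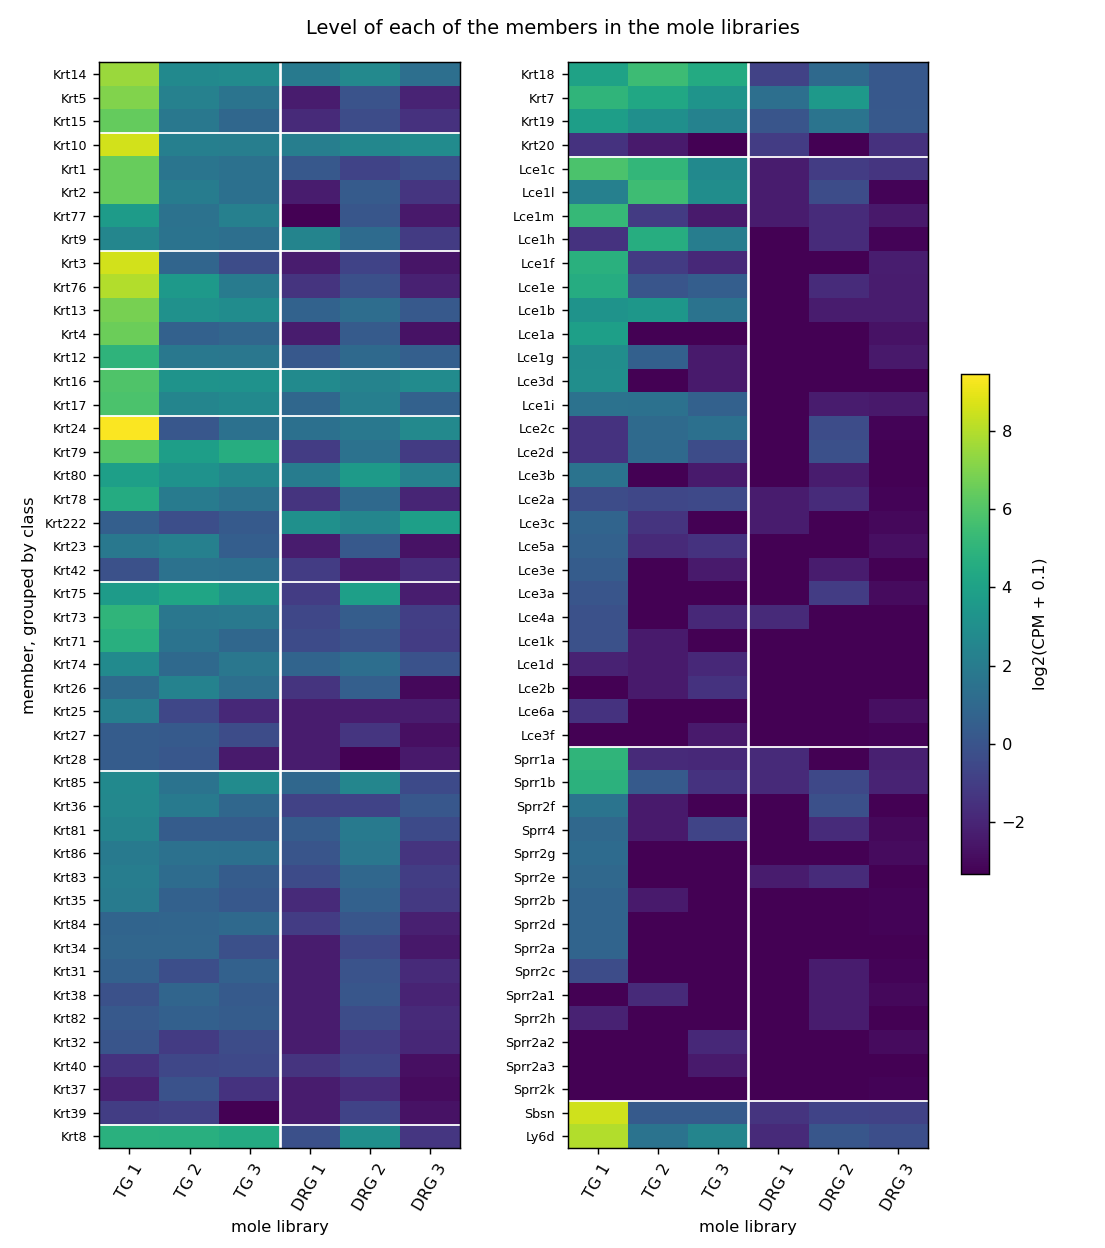
Each of the 92 members (rows, grouped by class and ordered by mean level) in the 6 mole libraries (columns), coloured by log2(CPM + 0.1), with a white line between TG and DRG. The TG 1 column is the brightest for 64 members, and Krt18, Krt8, Krt79 and several Lce1 genes are bright in all 3 TG columns.

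The basal layer keratins were high in TG 1 alone. Krt5, the type II chain of the basal layer, was at 129, 4.73 and 2.95 CPM in TG 1, TG 2 and TG 3, and at 0.0946, 0.875 and 0.137 CPM in DRG 1, DRG 2 and DRG 3. Its type I partner Krt14 was at 184, 6.58 and 7.11 CPM in the TG and 3.78, 6.42 and 2.44 CPM in the DRG. Krt15, another basal type I chain, stood at 86.9, 3.34 and 1.82 CPM against 0.189, 0.681 and 0.254 CPM. All 3 had TG above DRG with no overlap, and TG 2 lay only just above DRG 2 for Krt14. The fitted log2 fold changes were 7.21 ± 1.82 SE for Krt5, 6.45 ± 1.66 for Krt15 and 3.98 ± 1.33 for Krt14.

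Of the suprabasal keratins, which replace the basal pair as keratinocytes leave the basal layer, Krt10 was the highest. It stood at 380, 4.54 and 4.34 CPM in TG 1, TG 2 and TG 3, and at 4.26, 5.83 and 7.08 CPM in DRG 1, DRG 2 and DRG 3. TG 1 alone was high, and among the TruSeq libraries both DRG were above both TG, so the fitted log2 fold change of 4.49 ± 1.66 SE became -0.61 with those libraries alone. Krt1, the type II partner of Krt10, was at 90.0, 3.06 and 2.60 CPM in the TG and at 1.04, 0.486 and 0.708 CPM in the DRG, with no overlap. Krt2, a chain of the upper epidermis, was at 88.9, 4.08 and 2.52 CPM in the TG and from 0.0946 to 1.17 CPM in the DRG. Krt77 was lower, at 12.6, 2.69 and 4.68 CPM in the TG, with no count in DRG 1 and 0.972 and 0.0846 CPM in DRG 2 and DRG 3.

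The class of mucosal and corneal keratins held the largest TG 1 sum of all classes. Krt3, a corneal type II chain, was at 383 CPM in TG 1, 1.67 in TG 2 and 0.694 in TG 3, and between 0.0634 and 0.486 CPM in the DRG. It is among the most one-sided members, with TG 1 at 229 times the next library, and it did not pass the filter on low counts. Krt76, a chain of the hard palate, was at 250, 12.1 and 3.82 CPM in the TG and 0.284, 0.778 and 0.127 CPM in the DRG (fitted log2 fold change 8.14 ± 1.87 SE), so TG 2 and TG 3 were also above every DRG library. Krt13 stood at 112, 8.71 and 7.37 CPM against 1.51, 2.24 and 1.09 CPM. Its mucosal partner Krt4 stood at 95.6, 1.48 and 1.73 CPM against 0.0946, 1.17 and 0.0529 CPM. The corneal Krt12 had the smallest range of the class, at 31.6, 3.34 and 3.30 CPM in the TG and 1.04, 1.94 and 1.36 CPM in the DRG. All 5 keratins of the class had TG above DRG without overlap, and for Krt3 and Krt4 the TruSeq TG libraries lay close to DRG 2.

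Krt24, a type I chain of differentiated stratified epithelium, had the highest single value of any member, 670 CPM in TG 1. It was at 1.02 and 2.60 CPM in TG 2 and TG 3, and at 2.55, 3.40 and 6.25 CPM in DRG 1, DRG 2 and DRG 3. Among the TruSeq libraries both DRG were above both TG, and the fitted log2 fold change of 5.75 ± 2.17 SE became -1.49 there, while TG 3 and DRG 1 lay close together. Krt79, a type II chain of hair follicle duct and sebaceous epithelium, followed another course, at 68.5, 14.2 and 24.7 CPM in the TG against 0.378, 2.72 and 0.370 CPM in the DRG (log2 fold change 5.05 ± 1.02 SE). All 3 TG libraries were high for Krt79. Krt78 was at 23.4, 3.89 and 2.69 CPM in the TG and 0.284 to 1.94 CPM in the DRG. Krt80 overlapped, at 14.6, 8.99 and 5.98 CPM in the TG and 4.07, 12.4 and 4.80 CPM in the DRG.

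Krt16 and Krt17, which rise in wounded epidermis and are found in hair follicles and nail, were highest in TG 1 at 61.9 and 57.3 CPM. Krt16 was at 9.27 and 8.93 CPM in TG 2 and TG 3 and 5.15 to 7.09 CPM in the DRG, so outside TG 1 the TG stayed above the DRG by a small margin. Krt17 was at 5.56 and 6.68 CPM in TG 2 and TG 3 and 1.80, 4.47 and 1.47 CPM in DRG 1, DRG 2 and DRG 3.

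Sbsn encodes suprabasin, a secreted protein of the suprabasal epidermis, and Ly6d a surface protein of stratified epithelium and of early B cells. Sbsn was at 372 CPM in TG 1, 1.11 in TG 2 and 1.13 in TG 3, and at 0.284, 0.486 and 0.465 CPM in the DRG. Ly6d was at 250, 2.78 and 5.46 CPM in the TG and 0.189, 0.972 and 0.740 CPM in the DRG. Both had TG above DRG in every library, and TG 1 was 330 times the next library for Sbsn and 45.8 times for Ly6d.

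The Sprr genes, which encode crosslinked proline-rich proteins of the envelope, were seen in quantity in TG 1 only, and none of the 15 passed the filter on low counts. Their sum was 77.6 CPM in TG 1, 1.76 in TG 2 and 1.21 in TG 3, and 0.473, 2.04 and 0.402 CPM in DRG 1, DRG 2 and DRG 3. Sprr1a had 248 counts in TG 1 and 2 in each of TG 2 and TG 3, against 2, 0 and 11 in the DRG libraries. Sprr1b had 223 counts in TG 1, 12 in TG 2 and 3 in TG 3, against 2, 6 and 13 in the DRG. Without TG 1 the Sprr sums of the 2 ganglia overlapped. The highest Sprr2 gene was Sprr2f, with 22 counts in TG 1, 1 in TG 2, 0 in TG 3 and 8 in DRG 2, and Sprr4 had 14, 1 and 6 counts in the TG and 0, 2 and 2 in the DRG.

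The Lce genes were high in more than 1 TG library. Their sum was 203, 126 and 29.2 CPM in TG 1, TG 2 and TG 3 and 0.662, 4.08 and 1.09 CPM in DRG 1, DRG 2 and DRG 3. Every TG library was above every DRG library, and the TruSeq means were 77.6 CPM in the TG and 2.59 CPM in the DRG. The filter passed 5 of the 25 Lce genes, Lce1b, Lce1c, Lce1e, Lce1i and Lce1l, of which Lce1b, Lce1e and Lce1i were named after their values were seen. These 5 passed through their TG levels, with at most 0.681 CPM in any DRG library. Lce1c was at 56.7, 34.5 and 6.50 CPM in the TG against 0.0946, 0.389 and 0.296 CPM in the DRG (log2 fold change 6.89 ± 0.94 SE). Lce1b was lower in all libraries but of like pattern, at 9.38, 10.8 and 2.86 CPM in the TG and 0, 1 and 9 counts in the DRG.

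Which Lce1 gene was counted differed between TG libraries. Lce1l was at 4.69 CPM in TG 1, 45.0 in TG 2 and 7.54 in TG 3, and Lce1h at 0.268, 24.8 and 4.16 CPM, so both were lowest in TG 1. Lce1m stood the other way, at 37.4, 0.371 and 0.0867 CPM, and Lce1e at 24.0, 0.927 and 1.30 CPM. Lce1m had almost no window in common with another gene, while Lce1h and Lce1l are among the closely related copies shown above. Lce1e shared more than either of those copies, with 54.3% of its 36-base windows and 23.2% of its 76-base windows in another gene. The part of such sharing in these differences was not tested. The highest library was TG 1 for 17 Lce genes, TG 2 for 4 and TG 3 for 4, and no DRG library was the highest for any of the 25.

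Of the simple epithelium keratins, Krt8 and Krt18 were near or above their TG 1 level in TG 2 and TG 3, while Krt7 and Krt19 were 2.26 and 2.20 times the mean of those libraries in TG 1. Krt18, the type I chain of simple epithelia, was at 16.5, 42.5 and 22.1 CPM in TG 1, TG 2 and TG 3 against 0.473, 1.94 and 1.05 CPM in DRG 1, DRG 2 and DRG 3 (log2 fold change 4.56 ± 0.64 SE). Its partner Krt8 was at 27.1, 26.5 and 22.3 CPM in the TG against 0.757, 8.17 and 0.307 CPM in the DRG (log2 fold change 3.09 ± 1.09 SE). Both had every TG library above every DRG library, and TG 1 was the lowest TG library for Krt18. Krt19 was at 14.3, 8.07 and 4.94 CPM in the TG and 0.946, 2.92 and 1.09 CPM in the DRG. Krt7, a chain of glandular and ductal epithelium, was at 32.7, 19.1 and 9.80 CPM in the TG and 2.46, 12.0 and 1.04 CPM in the DRG. Krt7 overlapped because DRG 2 was above TG 3, and DRG 2 was the highest DRG library for Krt7, Krt8, Krt18 and Krt19 alike. The class made up 2.35% of the member CPM of TG 1 and 24.4% in each of TG 2 and TG 3.

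The keratins of the inner root sheath and companion layer of the hair summed to 88.1, 33.8 and 21.4 CPM in the TG and 3.78, 20.9 and 1.97 CPM in the DRG. Krt75, of the companion layer, was at 12.7, 18.2 and 9.54 CPM in the TG and at 0.378, 14.7 and 0.106 CPM in DRG 1, DRG 2 and DRG 3, so DRG 2 lay among the TG libraries. Krt71 and Krt73, of the inner root sheath, were highest in TG 1, at 26.7 and 33.1 CPM, and both were between 1.82 and 3.47 CPM in the other TG libraries and at most 1.26 CPM in the DRG. Krt74 overlapped, at 1.95 to 6.83 CPM in the TG and 0.824 to 2.33 CPM in the DRG. The hair shaft and nail keratins, 15 genes, summed to 38.4, 23.5 and 23.1 CPM in the TG and 6.62, 22.1 and 4.25 CPM in the DRG, again with DRG 2 near the TG. Their highest members Krt85, Krt81 and Krt86 overlapped between the ganglia, with no library of any of the 3 above 7.11 CPM, while Krt36 had TG above DRG, at 6.16, 3.71 and 1.82 CPM against 0.473, 0.486 and 0.994 CPM.

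Krt222, a divergent keratin-like gene, was the 1 member higher in the mole DRG, and was named after its values were seen. It was at 1.34, 0.742 and 1.13 CPM in the TG and 8.32, 5.74 and 14.6 CPM in DRG 1, DRG 2 and DRG 3 (log2 fold change -3.17 ± 0.55 SE), with no overlap. It was the largest single member in DRG 1 and DRG 3, with 13.99% and 23.7% of all member counts. The DRG was above the TG within both kits, which follows from the lack of overlap.

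**Figure D3:**
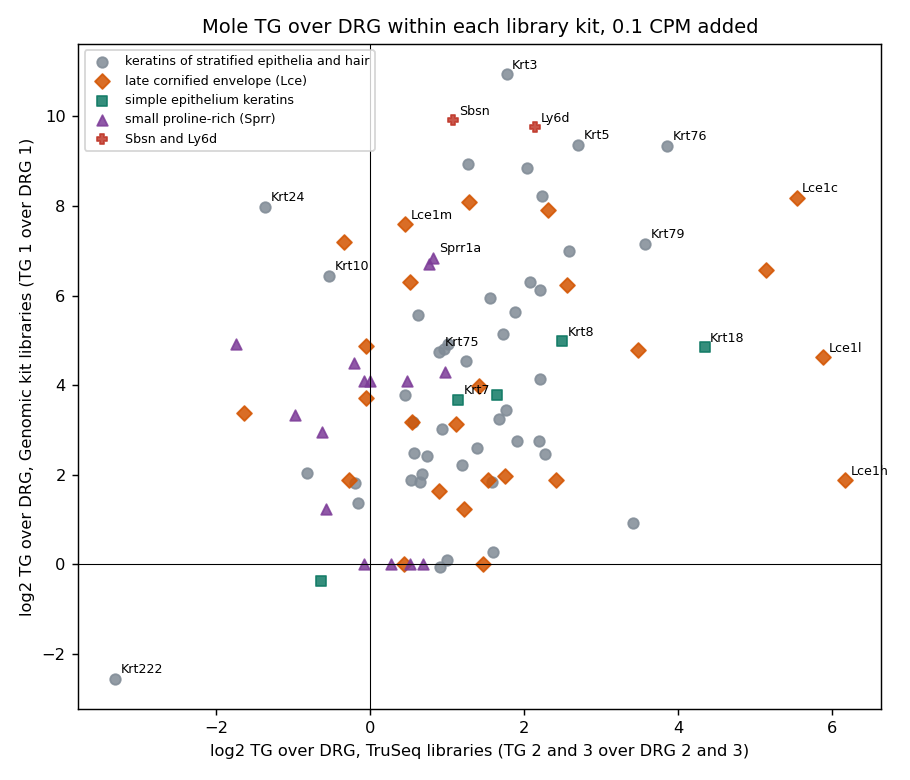
Log2 ratio of mole TG to DRG for each of the 92 members within the TruSeq libraries (horizontal axis, means of TG 2 and TG 3 over DRG 2 and DRG 3) and within the Genomic kit libraries (vertical axis, TG 1 over DRG 1), with 0.1 CPM added. TG 1 was above DRG 1 for 83 members, Krt24 and Krt10 lie left of 0 and far above it, and Krt18, Lce1c and Lce1l lie far to the right.

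Across the 92 members, TG 1 was above DRG 1 for 83, and both TruSeq TG libraries were above both TruSeq DRG libraries for 50, with the reverse for 5 (Krt10, Krt24, Krt222, Lce3a and Sprr2c). The rank correlation of member levels, over 92 genes of shared libraries and as a description, was 0.920 between TG 2 and TG 3. TG 1 was at 0.588 with TG 2 and 0.598 with TG 3. With DRG 1, DRG 2 and DRG 3 it was at 0.532, 0.540 and 0.658. DRG 3 was the deepest mole library, at 92323879 counts. Over all tested genes TG 1 was at 0.866 with TG 2 and 0.855 with TG 3. It was at 0.862, 0.857 and 0.823 with DRG 1, DRG 2 and DRG 3. At an equal depth of 8409670 counts, members with at least 10 counts numbered 64 in TG 1, 49 in TG 2 and 45 in TG 3, against 12, 27 and 9 in DRG 1, DRG 2 and DRG 3. Without thinning the numbers were 64, 54, 49, 17, 32 and 44, so the last DRG library gains members through its depth.

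Other epithelial genes, not taken by the rule, were read in the same mole libraries in 4 lists of 80 genes in the table, of which 63 passed the filter. EdgeR called 15 higher in the TG and 1, Klf5, higher in the DRG (23.8% and 1.59% of those tested, beside 10.5% and 12.9% of all 18078 genes tested). Among the 15, Krt6a, Krt6b, Cldn4 and Cldn7 were at most 0.486 CPM in any DRG library and passed the filter through their TG levels. The direction of such genes was set by the filter, so these shares are a description only. Summed over the 80 genes, the TG mean was 1715 ± 924 CPM and the DRG mean 1823 ± 75.2 CPM (SD, n = 3 each). The 15 became 3 without DRG 1 or DRG 3, 4 without TG 2, 7 without TG 3 and 34 without DRG 2. The 1 became 4 without TG 1 or DRG 2. Over all genes the share called higher in the TG was 1.05% without DRG 1 and 1.31% without DRG 3. It was 1.12% without TG 2, 2.11% without TG 3 and 18.5% without DRG 2. The share called higher in the DRG was 18.8% without TG 1 and 18.2% without DRG 2. The cornification list had 5 of 22 tested genes called higher in the TG: Tchh, Cdsn, Krt6a, Krt6b and Sfn. Its 4 genes of highest mean level were Spink5, Cstb, Pi3 and Sfn. The protease inhibitor gene Spink5 was at 236 CPM in TG 1, 1.30 and 1.65 CPM in TG 2 and TG 3 and 5.71 to 10.3 CPM in the DRG. TG 1 was the highest library for 27 of the 31 genes of this list, and over 10 times the next for 12. The elafin gene Pi3 was likewise at 228 CPM in TG 1 and at most 8.80 CPM elsewhere.

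The other 3 lists held 1 gene over 10 times in TG 1. In the desmosome list Jup was lowest in TG 1, at 54.9 CPM against 94.4 and 112 CPM in TG 2 and TG 3 and 128 to 175 CPM in the DRG, and 3 of 11 tested genes (Dsp, Pkp3 and Evpl) were called higher in the TG. TG 1 was the highest library for 8 of its 16 genes and over 10 times the next for 1, Dsg1. In the list of basal adhesion genes and regulators, 2 of 16 were called higher in the TG (among them Itgb4) and 1 in the DRG (Klf5). None exceeded 10 times in TG 1. Dst, the gene of highest mean level in that list, was at 799, 264 and 248 CPM in the TG and 1045 to 1290 CPM in the DRG. The list summed to a mean of 837 CPM in the TG and 1395 CPM in the DRG. The median log2 fold change of its tested genes was 0.66. Trp63, the master regulator of stratified epithelium, was at 3.48, 3.15 and 2.60 CPM in TG 1, TG 2 and TG 3 and 0.473, 2.53 and 0.634 CPM in the DRG. The desmoglein gene Dsg3 was at most 1.07 CPM in any library. In the simple epithelium list 5 of 14 tested genes (Cldn4, Cldn7, Elf3, Esrp2 and Rab25) were called higher in the TG, and the list was highest in TG 2 for 9 of 16 genes. The claudin gene Cldn3 was at 6.16, 27.0 and 22.3 CPM in the TG and 0.757 to 7.49 CPM in the DRG, while Cdh1 was at 13.0 to 25.9 CPM in the TG and 26.9 to 83.2 CPM in the DRG.

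**Figure D4:**
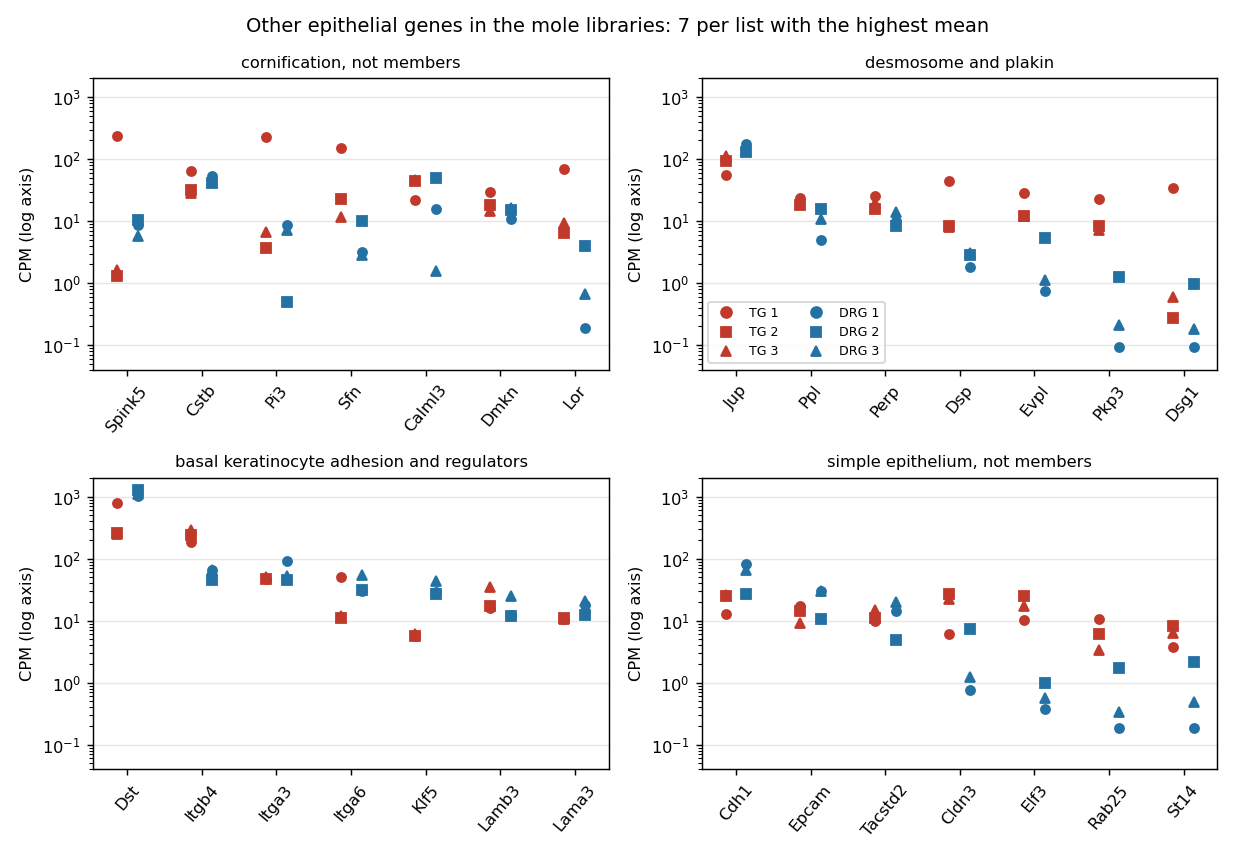
CPM (log axis) of the 7 genes of highest mean level in each of 4 lists of epithelial genes that are no members, in the 6 mole libraries, red for TG and blue for DRG, with the symbol giving the replicate. Spink5, Pi3 and Sfn stand apart in TG 1, at 236, 228 and 153 CPM, while Jup and Cdh1 are lowest in TG 1, at 54.9 and 13.0 CPM.

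Further genes that were high in TG 1 against every other library were found by a rule of ratio among those of at least 20 CPM there, leaving out the members. In all, 53 genes were over 10 times the next library in TG 1, 18 of them members, against 0 in TG 2, 2 in TG 3, 0 in DRG 1, 3 in DRG 2 and 1 in DRG 3. The 15 leading genes that are no members included Krtdap (62.2 CPM in TG 1 and at most 0.260 elsewhere), Cnfn (38.7 and at most 0.681), Calm4 (109 and at most 1.30), S100a7 (381 and at most 3.99), Lgals7 (33.6 and at most 0.607) and Fam25a (64.8 and at most 0.0317), all known from keratinocytes, of which Krtdap and Cnfn are also counted in the cornification list above, with S100a7a, S100a7l2, Lgals7b, Fam25c and 2200001I15Rik beside them. The keratin-associated hair genes Krtap21-1 and Krtap21-2 were also among them, at 59.5 and 20.6 CPM in TG 1, as were Mir572 and Asap1-it. Skeletal muscle genes summed to 977, 2147 and 1299 CPM in the TG and 510, 799 and 398 CPM in the DRG, so TG 1 was not the highest TG library there, and the part of muscle in the member levels was not tested.

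In the mouse no member was called in either direction. The filter passed 35 of 78, and edgeR called 0 members with the labelled TG higher and 0 with the labelled DRG higher at an adjusted p under 0.05, where 1.12% and 1.21% of the 21394 genes tested were called. At an unadjusted p under 0.05 there were 5 members by edgeR, 6 by DESeq2 and 6 by limma-voom, and DESeq2 called 1 after adjustment, Krt83, and limma-voom none. DESeq2 called 4.82% of all genes with the labelled DRG higher. All members together were at 75.9 and 79.2 CPM with the TG label against 69.1 and 69.3 CPM with the DRG label, and Krt222 made up 56.0 to 61.3% of the member counts of each. Levels were scaled separately in the 2 species, so mole and mouse CPM can be read side by side but not subtracted.

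Krt222 itself was at 44.1 and 47.3 CPM with the TG label against 42.3 and 38.8 CPM with the DRG label (log2 fold change 0.17 ± 0.15 SE, edgeR adjusted p = 0.618). Krt19 was at 5.75 and 4.89 CPM against 2.98 and 4.30 CPM (0.55 ± 0.29 SE, edgeR adjusted p = 0.424). Sbsn, at 4.04 and 4.01 CPM against 3.55 and 3.92 CPM, differed by 0.11 ± 0.26 SE (edgeR adjusted p = 0.875). None of these differences exceeded the spread by that test, and Sbsn had nearly the same level in all 4 mouse libraries, where in the mole it ranged from 0.284 to 372 CPM.

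The stratified pairs were low in every mouse library. Krt5 was at most 0.183 CPM, and Krt14 stood at 0.504 and 0.541 CPM with the TG label against 1.12 and 0.491 CPM with the DRG label (log2 fold change -0.63 ± 0.57 SE, edgeR adjusted p = 0.643). Krt10 stood at 1.54 and 1.57 CPM against 2.07 and 2.86 CPM (-0.66 ± 0.33 SE, edgeR adjusted p = 0.397). Krt76 and Krt24 were at most 0.0709 and 0.116 CPM, and Lce1c and Lce1l at most 0.0411 and 0.0822 CPM with no count in either library labelled DRG.

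The 5 mouse members with the lowest adjusted p were Krt83, Krt7, Lce6a, Krt12 and Krt25, of which all but Krt7 were named after their values were seen. Krt83, a hair shaft chain, had 30 and 49 counts with the TG label against 127 and 110 with the DRG label (log2 fold change -1.95 ± 0.51 SE, edgeR adjusted p = 0.123). Krt7 had 23 and 23 counts against 2 and 1 (3.54 ± 1.04 SE, edgeR adjusted p = 0.163). Lce6a, a cornified envelope gene, had 26 and 26 counts against 4 and 0 (3.41 ± 1.24 SE, edgeR adjusted p = 0.249). The corneal Krt12 had 2 and 31 counts against 158 and 50 (-2.94 ± 1.07 SE, edgeR adjusted p = 0.25). Krt25, of the inner root sheath, was at 2.29 and 2.64 CPM against 1.12 and 1.47 CPM (0.93 ± 0.34 SE, edgeR adjusted p = 0.253). The groups as labelled did not overlap for these 5, which adds nothing, as they were picked by adjusted p with 2 libraries per group. Krt7 and Lce6a had at least 10 counts only in the libraries labelled TG. Over all 78 mouse members 25 had both libraries labelled TG on top and 8 both labelled DRG, and for tested genes 15 and 5 of 35, where 24.2% and 23.9% of all tested genes did so.

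**Figure D5:**
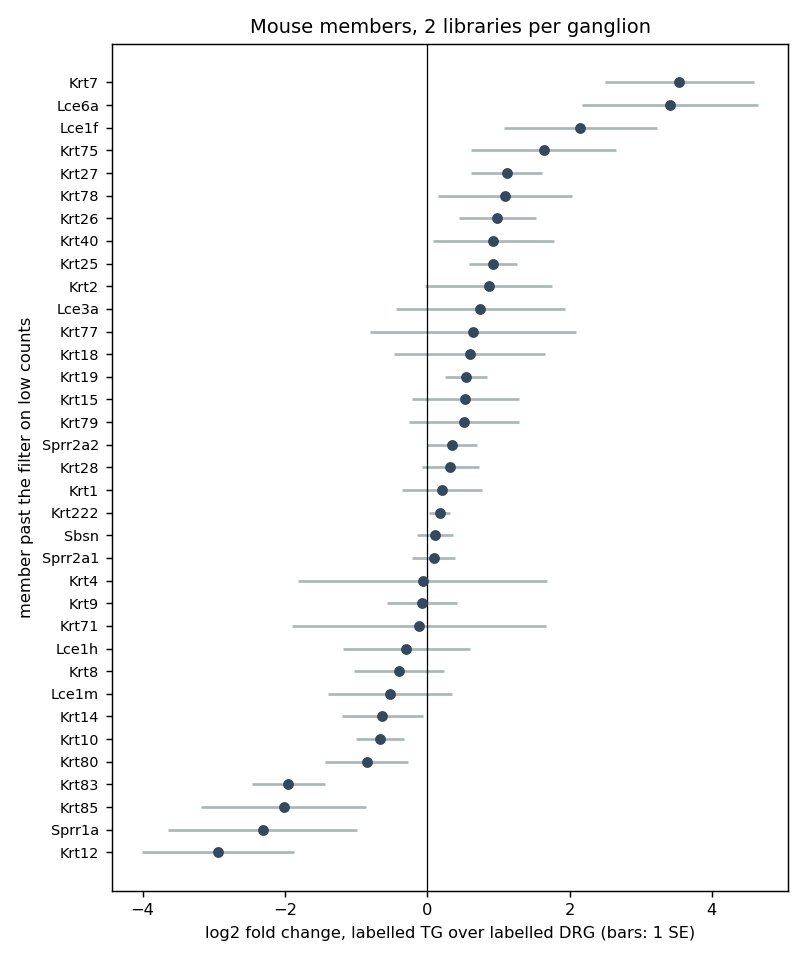
Log2 fold change of libraries labelled TG over those labelled DRG, with 1 SE, for the 35 mouse members that passed the filter on low counts, in order of fold change. Krt7 is at the top (3.54) and Krt12 at the bottom (-2.94), and none passed edgeR's adjusted threshold.

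Among the other epithelial genes of the mouse, 66 of 78 were tested and edgeR called 1 in each direction. Beside these, 1.12% and 1.21% of all genes tested were called with the labelled TG and the labelled DRG higher. Grhl3, a regulator of epidermal differentiation, was at 18.4 and 17.0 CPM with the TG label against 5.19 and 6.70 CPM with the DRG label (log2 fold change 1.58 ± 0.22 SE, edgeR adjusted p = 0.0294). Itgb4, the integrin of the hemidesmosome and also a Schwann cell gene, was at 61.6 and 60.4 CPM against 105 and 119 CPM (-0.87 ± 0.13 SE, edgeR adjusted p = 0.0339). Both genes are named because they were called, so their lack of overlap between the groups adds nothing. Without 1 mouse library a group holds 1 library, so calls from such fits are not given. The cornification list, which stood out in mole TG 1, had 0 of 21 tested genes called in the mouse.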

How the data were processed

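RNA-seq reads were counted per gene by the authors, and the deposited counts are whole numbers with no normalization. By the study's methods, Stampy aligned mole reads stepwise to transcripts of human, dog and mouse, summed over homologs, and mouse reads to mouse transcripts alone. Tables of the authors' own calls were not used. The submitters' processing notes name DESeq. Counts exist here for 10 of 12 samples, and the other 2 mouse samples were not analysed here. Groups follow the labelled species and ganglion, and p-values measure the spread between samples of 1 group. In the mole that spread also holds the library kit, and 1 DRG sample was combined from 2 individuals.

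Tests used edgeR 4.0.16 under R 4.3.3 (filterByExpr with a minimum count of 10, TMM factors, quasi-likelihood test of TG against DRG in each species) and Benjamini-Hochberg adjustment over all genes tested, with a threshold of 0.05. SE is the log2 fold change over the square root of F. CPM is the count over the library total times its TMM factor, with totals of 8409670 to 147076817. The members and lists were chosen with earlier results of these data known. Named members were, in each class, up to 4 of highest mean mole CPM among those with at least 1 CPM in any library, plus Krt5, Krt76, Sbsn, Lce1c and Lce1l. Other epithelial genes were named 4 per list by mean mole CPM, along with called genes, and the companions of TG 1 by ratio to the highest other library (0.1 CPM added, at least 20 CPM, 15 genes). Sequences came from GENCODE M21 (GRCm38). Of the 93 members in either table, 80 were found there and 37 in the mole assembly ConCri1.0. Alternatives were RLE and upper-quartile factors, other filters, DESeq2 1.42.0, limma-voom 3.58.1, a replicate block, library kit, thinning and leaving out each library. A few items are not reported here. The test was checked on simulated data with 200 changed genes.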

Additional observations from a re-analysis of the deposited data

Results flagged for a closer look

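Among the named members, Krt222, Krt12 and Ly6d had the ganglia apart without overlap in both species, in opposite order as labelled. Of the members not named, Krt34 and Krt42 did so as well, with at most 10 counts in any mouse library. The share of all genes that did so was not counted. TG above and DRG above without overlap held for 21.7% and 22.4% of tested mole genes. In the mouse as labelled it was 24.2% and 23.9%. The difference between species was not tested, and within the mouse Krt222 and Krt12 did not pass edgeR's test (adjusted p = 0.618 and 0.25) and Ly6d was not tested. Krt222 had mean levels of 1.07 CPM in the mole TG and 9.57 CPM in the mole DRG, against 45.7 CPM in mouse libraries labelled TG and 40.6 CPM in those labelled DRG. For Krt12 the means were 12.7 and 1.45 CPM in the mole and 0.114 and 0.889 CPM in the mouse. For Ly6d the means were 86.2 and 0.634 CPM in the mole and 0.0103 and 0.0533 CPM in the mouse, where it had few counts. The mouse labels go against the Hox genes, so this order depends on labels in doubt, and with the mouse labels turned it would be the same in both species.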

How the results depend on the processing

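In the mole, on the contrast for which the set was proposed, the fit across all genes called 20 members higher in the TG, and this count and its changes are a description that supports nothing about the members. The 20 became 36 with no filter, 5 with at least 10 counts in every library and 6 in the TruSeq libraries alone. They became 40 without mole TG 1 and mole DRG 2, and 3 at an adjusted p under 0.01. Over all genes tested, the share called higher in the TG was 10.5% in the main fit and 3.92% with no filter. It was 15.2% with at least 10 counts in every library, 4.76% in the TruSeq libraries and 33.3% without TG 1 and DRG 2. That filter of 10 counts left 15 members to test. These held 2 of the 21 members called in the main fit, and both were still called. Leaving out 1 library gave 3 to 34: 13 without TG 1, 7 without TG 2, 3 without DRG 1, 34 without DRG 2 and 3 without DRG 3. The share of all genes moved as well, to 12% without TG 1, 1.12% without TG 2 and 2.11% without TG 3. It was 1.05% without DRG 1, 18.5% without DRG 2 and 1.31% without DRG 3. The 1 member higher in the DRG, Krt222, had 8 counts in TG 2. With at least 10 counts required in every library it was therefore not tested. It was not called at 0.01, nor without TG 2, DRG 1 or DRG 3. Over all genes 12.9% were called higher in the DRG in the main fit. That share was 1.07% without TG 2, 1.99% without DRG 1 and 2.3% without DRG 3.

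The 15 other epithelial genes higher in the mole TG became 6 with at least 10 counts in every library, 25 with DESeq2, 26 with limma-voom, 4 in the TruSeq libraries, 31 without TG 1 and DRG 2 and 3 at 0.01. They ranged from 3 to 34 with a library left out (4 without TG 2, 7 without TG 3, 3 without DRG 1 or DRG 3, 34 without DRG 2). The share of all genes called higher in the TG was 15.1% with DESeq2 and 18.7% with limma-voom. Those for the other filters and libraries are given above. The 1 higher in the DRG became 3 with no filter and with DESeq2, and 2 with limma-voom and with the kit as a covariate. It became 4 in the TruSeq libraries, 10 without TG 1 and DRG 2, and 1 to 4 with a library left out (4 without TG 1 or DRG 2). Over all genes the share called higher in the DRG was 7.75% with no filter, 18% with DESeq2 and 16.4% with limma-voom. It was 12.5% with the kit as a covariate, 10.2% in the TruSeq libraries and 29.9% without TG 1 and DRG 2. Without TG 1 it was 18.8%, and without DRG 2 18.2%.

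In the mouse DESeq2 called 1 member higher in libraries labelled DRG, where it called 4.82% of all genes in that direction. Other epithelial genes higher with the TG label became 2 with no filter, 3 with DESeq2 and 0 at 0.01. Those higher with the DRG label became 3 with DESeq2 and 0 at 0.01. Over all genes 1.53% were called with the labelled TG higher with no filter, and 3.59% with DESeq2. Fits without 1 mouse library leave 1 library in a group, so their calls are not given.

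Whether the replicate numbers of the labels pair the samples was not settled. In the mole, correlations of same-numbered deviations were 0.244, 0.416 and -0.107, against -0.334 to 0.244 for the other pairs. TG 1 and DRG 1 also shared the Genomic kit. With a replicate block the other epithelial genes higher in the mole DRG became 2, and no other count here left 1.5 times its value. In the mouse the same-numbered correlation was -0.369 and the other 0.369. With 2 libraries per group these are mirror images, so they cannot decide on pairing. A crossed replicate block, chosen after seeing the data, called 1 member with the labelled TG higher, 2 with the labelled DRG higher, and 4 and 3 other epithelial genes. Over all genes that block called 4.51% with the labelled TG higher and 6.16% with the labelled DRG higher.

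The Krt10 log2 fold change in the mole turned to -0.61 in the TruSeq libraries, -0.39 without TG 1 and DRG 2 and ranged from -0.44 (without TG 1) to 5.05 (without TG 2) with a library left out. That of Krt24 turned to -1.49 and -1.33 in the same settings and ranged from -1.24 to 6.33, and that of Krt14 in the mouse ranged from -1.10 to 0.091 (without DRG 1). With a library left out, the mean summed member level was 318 to 2112 CPM in the mole TG, 61.8 to 102 CPM in the mole DRG, 76.6 to 79.5 CPM in the labelled mouse TG and 68.5 to 69.8 CPM in the labelled mouse DRG. The mouse sums moved to 66.3 and 58.8 CPM for keratins alone, and in libraries labelled DRG to 68.3 CPM with upper-quartile factors, 69.4 CPM with no factors and 67.6 CPM after thinning. The cause of these shifts was not tested. In the mole none of the 15 Sprr genes and 5 of the 25 Lce genes passed the filter on low counts, so the others were not tested at this depth.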
